A study of Mus musculus with 9 samples.

Results

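The peaks described here lie in the major histocompatibility region of mouse chromosome 17. They are every peak of the 8 deposited lists whose summit falls from 33500000 to 37200000 in the build mm9, on either strand. There were 287 such peaks among 49266 in all. The region was divided at 35300000 into a class II and III part of 1.8 Mb with 179 peaks and a class I part of 1.9 Mb with 108 peaks. The remaining 91.6 Mb of chromosome 17 held 2046 peaks.

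The peaks mark RNA that was crosslinked to Polycomb repressive complex 2 (PRC2), measured by dCLIP, in which a biotin-tagged protein is captured on streptavidin with the RNA that UV light has bound to it. All libraries came from EL 16.7 mouse embryonic stem cells, a female CAST/Ei x 129/Sv/Jae hybrid line, after 7 days of adherent differentiation. Each cell line stably expressed the biotin ligase BirA together with an Avi-GFP-tagged subunit of the complex, mEzh2 in clones 4A (replicate 1) and 5A (replicate 2), or mSuz12 in clones 8E (replicate 1) and 8H (replicate 2). There were thus 2 libraries per protein, each from 1 clone, and 4 in all. Because the tagged proteins were introduced into the cells, the lists report binding by tagged subunits. The series also has a mock library, whose cells carried no tagged subunit, and 4 PRO-seq libraries. They were not analysed here, so no untagged background stands beside the values.

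PRC2 places the repressive methyl mark on lysine 27 of histone H3. EZH2 is its catalytic subunit and SUZ12 is a core subunit that holds the complex together and is needed for its activity. Both bind RNA, and nascent transcripts are a major class of the RNA found with the complex. The major histocompatibility region encodes the proteins that present peptides to T cells. Class II molecules, such as those made from H2-Ab1 and H2-Eb1, present peptides taken up by immune cells, and Tap1 and Tap2 carry peptides to class I molecules, which nearly all cells can display. The class III genes between them are of mixed kind, among them complement genes such as C4b, the cytokine gene Tnf, heat shock genes such as Hspa1a, and genes for chromatin and RNA proteins such as Ehmt2 and Ddx39b. In RefSeq's GRCm38 table the order along the chromosome is H2-K1, then the class II genes, then Notch4, C4b, Ehmt2, Hspa1a and Tnf, then the class I genes H2-D1 and H2-Q1 to H2-Q10, then Pou5f1 and Tubb5, and further class I genes from H2-T24 to H2-M3. That table is of another build than the peaks, so no peak was assigned to a gene, exon or intron, and the names of the parts were not checked against genes. No sequence is printed for the same reason.

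Peaks were denser in the region than on the rest of the chromosome in every library. The region makes up 3.88% of chromosome 17 and held 12.3% of its 2333 peaks. EZH2 replicates 1 and 2 had 61 and 79 peaks there, and SUZ12 replicates 1 and 2 had 65 and 82. Per Mb this was a mean of 19.4 ± 2.79 peaks (SD, n = 4), against 4.89 to 6.08 on the rest of the chromosome. The density was 3.20 to 3.77 times that of the rest, with a mean of 3.46-fold (log2 1.79 ± 0.10, SD, n = 4; exact sign-flip permutation test over libraries, two-sided p = 0.125, the smallest that 4 libraries allow).

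The class II and III part was the denser of the parts. It held 41 and 48 peaks in EZH2 replicates 1 and 2 and 39 and 51 in SUZ12 replicates 1 and 2, or 24.9 ± 3.15 peaks per Mb (SD, n = 4). The class I part held 20, 31, 26 and 31 peaks in the same order, or 14.2 ± 2.75 per Mb. The lowest value of the first part, 21.7 per Mb, lay above the highest of the second, 16.3, so the parts did not overlap over libraries. Within a library the class II and III part was 2.16, 1.63, 1.58 and 1.74 times as dense as the class I part, a mean of 1.77-fold (log2 0.82 ± 0.20, SD, n = 4; exact sign-flip permutation test, two-sided p = 0.125, higher in 4 of 4 libraries).

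**Figure D1:**
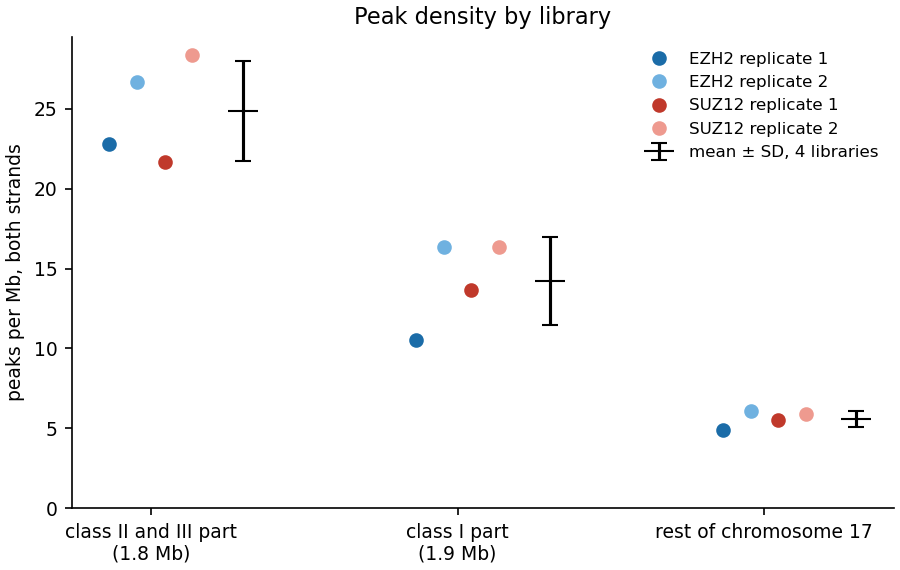
Peaks per Mb on both strands (vertical axis) in the class II and III part, the class I part and the rest of chromosome 17. Each point is 1 library and the black mark is the mean ± SD of 4 libraries. The class II and III part lies between 21.7 and 28.3, the class I part between 10.5 and 16.3, and the rest between 4.89 and 6.08.

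Against the rest of the chromosome, the class II and III part was 4.44-fold denser (log2 2.15 ± 0.13, SD, n = 4) and the class I part 2.51-fold (log2 1.33 ± 0.16, SD, n = 4), each higher in 4 of 4 libraries (exact sign-flip permutation test, two-sided p = 0.125). Much of the rest of the chromosome held no peak at all. A peak of any library was present in 52.8% of the stranded 50-kb windows of the class II and III part, 42.1% of those of the class I part and 17.9% of the others. When only such stranded windows were counted, the class II and III part was 1.51-fold denser than the rest, higher in 4 of 4 libraries. The class I part was then 1.07-fold denser (log2 0.10 ± 0.16, SD, n = 4; exact sign-flip permutation test, two-sided p = 0.375), higher in 3 of 4 libraries and lower in EZH2 replicate 1 at 0.915-fold, so its excess was smaller than the spread between libraries. With windows kept that had a peak on either strand, the excess was 2.15-fold and 1.48-fold. The values against the rest of the chromosome thus depended on the empty windows, and the class II and III part was 1.41-fold denser than the class I part over occupied stranded windows, in 4 of 4 libraries. Gene content and transcription were not compared with these densities.

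The region was not the densest of the chromosome throughout. In windows of 1 Mb, the one from 35000001 to 36000000 held 126 peaks over the 4 libraries, and the window from 56000001 to 57000000, outside the region, held 126 as well. These were the highest counts of 96 windows, where the median was 14. Also outside the region, the window from 46000001 to 47000000 held 105 peaks. The neighbouring windows from 24000001 to 29000000 held 85, 72, 74, 92 and 93, so a longer stretch elsewhere was dense too. The window from 34000001 to 35000000 ranked eighth, with 81 peaks. The windows starting at 33000001 and 36000001 held 37 and 28, ranks 20 and 32, where the former shares its rank with another window and lies only in part in the region.

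**Figure D2:**
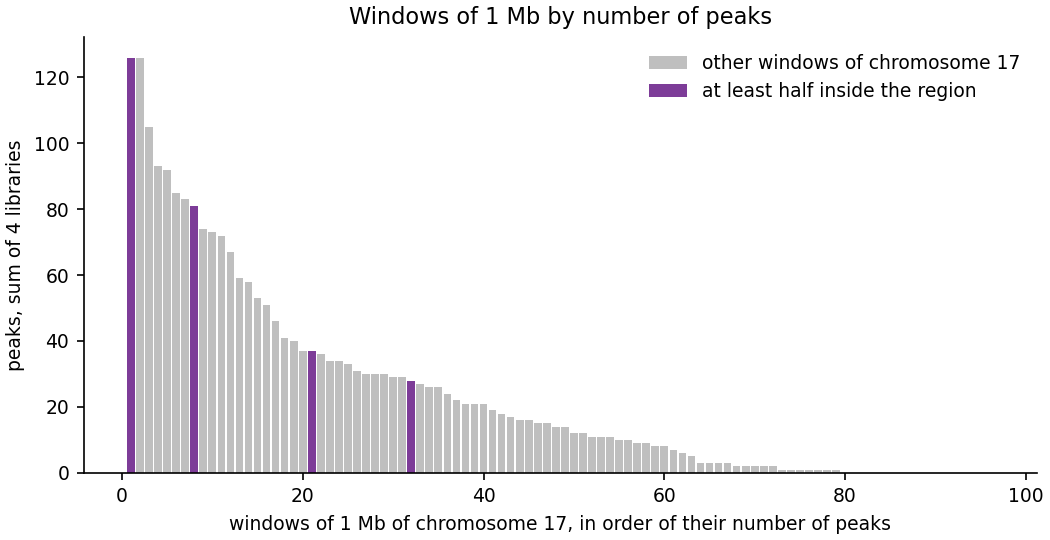
Peaks summed over the 4 libraries (vertical axis) in the 96 windows of 1 Mb of chromosome 17, ordered from the fullest to the emptiest (horizontal axis). The 4 windows starting from 33000001 to 36000001 are coloured, and they hold 126, 81, 37 and 28 peaks.

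Within the region the peaks gathered in a few stretches. The 100 kb from 34000001 held 8 and 13 peaks of EZH2 replicates 1 and 2 and 5 and 12 of SUZ12 replicates 1 and 2, the most of any 100-kb window of the region. With the 100 kb that follow, this stretch held 53 peaks, 27 on the plus and 26 on the minus strand. The 400 kb from 35000001 to 35400000 held 18 and 19 peaks in EZH2 replicates 1 and 2, and SUZ12 had 25 in either clone. These 87 peaks are 30.3% of the region's peaks in 10.8% of its length. This stretch runs across the boundary between the parts. The last peak before the boundary lay 0.41 kb from it and the first after it 0.151 kb, so the boundary cuts through a dense stretch. Outside these 400 kb, the class II and III part held 18.3 peaks per Mb and library and the class I part 12.5. In EZH2 replicates 1 and 2 and SUZ12 replicates 1 and 2 these were 27, 33, 19 and 31 peaks in 1500 kb, against 16, 27, 21 and 26 in 1800 kb. SUZ12 replicate 1 thus had fewer peaks in the class II and III part there, over a shorter length. The last 100 kb of the region held 20 peaks, 17 of them on the plus strand. These stretches were chosen after their values were seen.

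Both parts were uneven to a like degree. The 3 fullest of the 18 windows of 100 kb in the class II and III part held 49.2% of its peaks, and the 3 fullest of 19 in the class I part held 48.1%. No library had a peak in 4 windows of the former and in 6 of the latter. The longest stretch without a summit on either strand, 577 kb, lay in the class I part between 36414477 and 36991119. The next, 359 kb, lay in the class II and III part between 34346045 and 34704546. A further 210 kb in the class I part, from 36198289 to 36407920, and 184 kb in the class II and III part, from 34790271 to 34973814, were also empty. Depth is not known from peak lists, so an empty stretch is one in which no peak was called, not one shown to lack bound RNA.

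**Figure D3:**
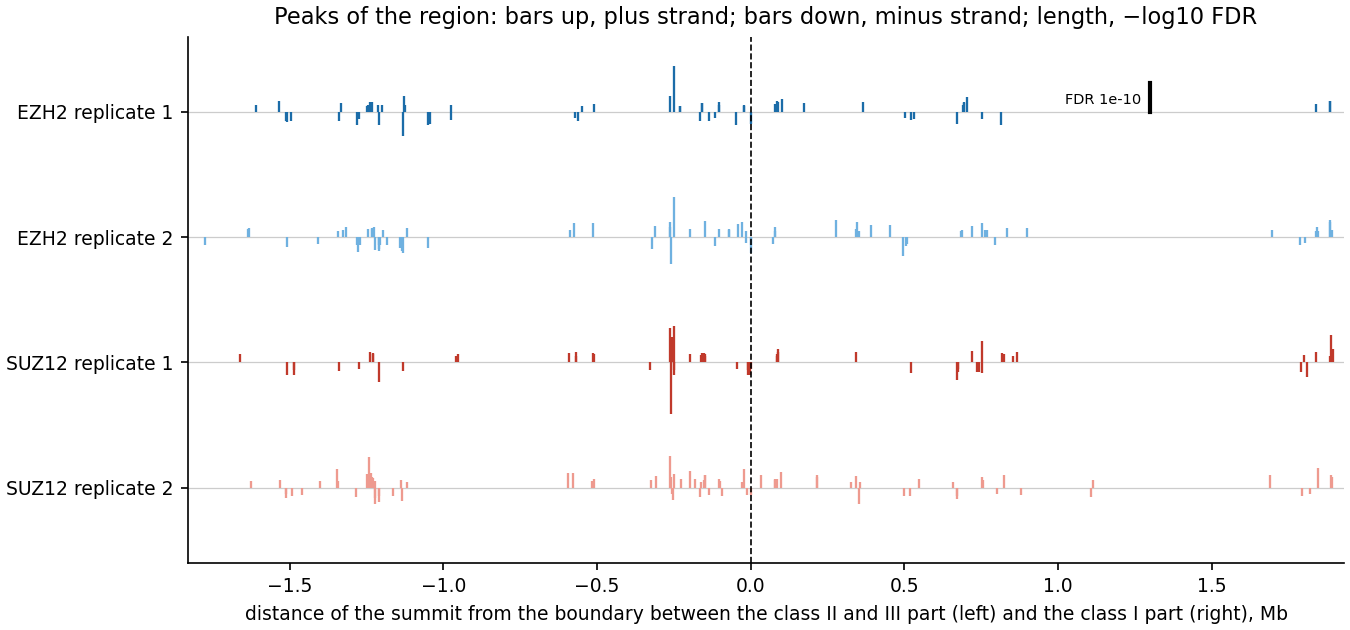
Every peak of the region by library (rows), placed by the distance of its summit in Mb from the boundary between the class II and III part, on the left, and the class I part, on the right (horizontal axis). Bars point up for the plus and down for the minus strand, and their length is the −log10 of the FDR, with a black bar for an FDR of 1e-10 as the scale. The dense stretch at the boundary holds peaks in each of the 4 rows. The long empty stretch on the right was found from the summits of all libraries together, so it is empty in each row by definition.

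By strand, the window of 50 kb with the highest minimum over the libraries was that on the plus strand from 34050001 to 34100000. Both EZH2 libraries had 5 peaks in it, SUZ12 replicate 1 had 3 and SUZ12 replicate 2 had 7. Its peaks were spread over the window and few coincided between libraries. Only 3 of its sites had a peak in more than 1 library, each in 2. Next came the plus-strand windows from 35350001 with 3, 2, 4 and 3 peaks, from 35150001 with 2, 2, 2 and 4, and from 37150001 with 2, 3, 3 and 2, naming the EZH2 clones first. The fifth place was tied between the minus strand from 34050001, with 1, 5, 1 and 4 peaks, and the plus strand from 35100001, with 2, 1, 4 and 4. The stretch from 34050001 to 34100000 thus led on both strands. In all, 16 of the 148 stranded windows of the region (10.8%) had a peak in every library. The share was 15.3% in the class II and III part, 6.58% in the class I part and 2.46% on the rest of the chromosome. These shares count empty windows too. Of the windows with a peak in any library, they were 11 of 38, 5 of 32 and 90 of 656, in the same order. The class I part was then near the rest.

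Peaks that overlapped on the same strand by at least 1 bp were joined into sites. The 287 peaks formed 241 sites, of which 205 had a peak in 1 library, 30 in 2, 3 in 3 and 3 in all 4. Sites with a peak in at least 2 libraries were 14.9% of all in the region and 8.09% on the rest of the chromosome. The 3 sites of all libraries lay in the class II and III part, where 3 of 150 sites (2%) were of this kind, against 0 of 91 in the class I part and 15 of 1842 (0.814%) on the rest of the chromosome.

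The site with the lowest weakest false discovery rate (FDR, the value the authors' caller gave each peak within its list) lay on the plus strand at 35036170 to 35036892. Its best peaks had an FDR of 3.14e-06 and 8.06e-06 in EZH2 replicates 1 and 2 and of 1.48e-12 and 2.07e-11 in SUZ12 replicates 1 and 2. The summits of both SUZ12 libraries lay 1 bp apart, at 35036418 and 35036417. The EZH2 summits stood elsewhere, at 35036675 in replicate 1 and at 35036369 and 35036771 in replicate 2, which had 2 peaks there. The site is therefore a chain over 723 bp with summits up to 402 bp apart, and it did not remain a site of 4 libraries when peaks were set to 50 bp on each side of the summit, which left 2 such sites.

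The second site lay on the plus strand at 35050509 to 35050784, in the same dense stretch. Its FDR was 2.33e-16 and 1.25e-14 in EZH2 replicates 1 and 2, 3.55e-13 in SUZ12 replicate 1 and 1.98e-05 in SUZ12 replicate 2, which was the weakest of the 4 by far. All 4 peaks were of similar extent, 227 to 253 bp, with summits within 48 bp. From the first to the second site, over 14.6 kb, there were 20 peaks, 14 on the plus and 6 on the minus strand, and 11 of them had an FDR below 1e-05. SUZ12 replicate 1 contributed 9 of the 20, and EZH2 replicate 1 only 2, both at the named sites.

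The third site lay on the minus strand at 34089212 to 34089598. Its FDR was 4.56e-05 and 1.42e-05 in EZH2 replicates 1 and 2 and 2.00e-07 and 1.66e-05 in SUZ12 replicates 1 and 2. The summits fell within 33 bp although the peaks were 150 to 387 bp wide. This is the site where the 4 libraries lay closest together in strength and position.

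Sites of 3 libraries were weaker. The plus-strand site at 35386817 to 35387089 in the class I part had an FDR of 0.000141, 0.00117 and 0.000988 in EZH2 replicate 1 and SUZ12 replicates 1 and 2, and no peak in EZH2 replicate 2. The plus-strand site at 35103038 to 35103197 in the class II and III part lacked EZH2 replicate 1. It had 0.00168, 0.00103 and 2.55e-06 in EZH2 replicate 2 and SUZ12 replicates 1 and 2, with summits within 11 bp. The plus-strand site at 37184440 to 37184660, near the end of the class I part, lacked SUZ12 replicate 2 and had 0.000161, 6.72e-06 and 0.008 in EZH2 replicates 1 and 2 and SUZ12 replicate 1. A different library was missing at each of the 3.

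**Figure D4:**
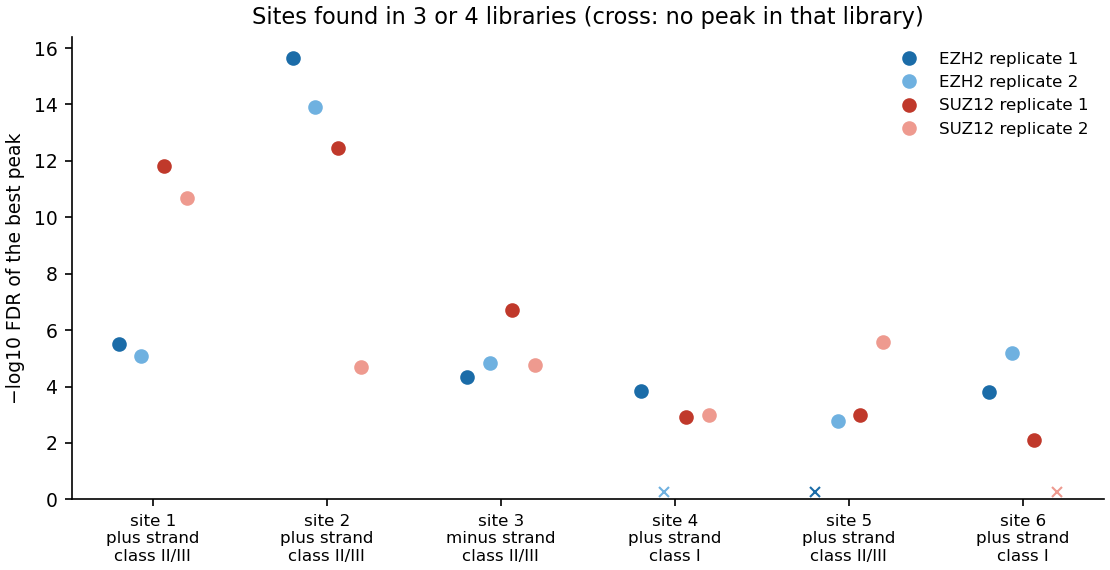
The −log10 FDR of the best peak of each library (vertical axis) at the 6 sites with a peak in 3 or 4 libraries (horizontal axis), in the order in which the text describes them. Points are libraries and a cross marks a library without a peak. At the second site SUZ12 replicate 2, with 1.98e-05, stands far below the other 3.

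Most of the 30 sites of 2 libraries joined an EZH2 and a SUZ12 library, and most of the possible pairs of libraries do so too. EZH2 replicates 1 and 2 shared 2 of them alone and SUZ12 replicates 1 and 2 shared 6. Pairs across proteins accounted for the other 22, with 8 in EZH2 replicate 1 and SUZ12 replicate 1, 5 in EZH2 replicate 2 with each SUZ12 library, and 4 in EZH2 replicate 1 and SUZ12 replicate 2. Pairs were not counted on the rest of the chromosome. By peaks, a mean of 23.6% in the region were shared with the other protein, which has 2 libraries, and 12.3% with the other clone. On the rest of the chromosome these shares were 13.1% and 9.13%, in the same order. The strongest site of 2 libraries, on the minus strand at 35042093 to 35042364, had an FDR of 1.82e-18 in SUZ12 replicate 1, the lowest in the region, and 7.23e-10 in EZH2 replicate 2. No peak was called there in the other two libraries. A minus-strand site at 34167509 to 34167818 had 4.66e-09 in EZH2 replicate 1 and 0.00104 in SUZ12 replicate 1. Strong peaks could thus be absent from 2 libraries or more. On the plus strand at 34057303 to 34057480, SUZ12 replicate 2 had a peak with an FDR of 4.31e-11 that no other library shared.

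The strongest peaks of the class I part were of this kind in each library. The peak with the lowest FDR lay at 36005431 to 36005609 on the plus strand in EZH2 replicate 1 (5.58e-06) and at 35796179 to 35796369 on the minus strand in EZH2 replicate 2 (3.17e-07). In SUZ12 replicate 1 it lay at 37187321 to 37187515 (3.12e-10) and in replicate 2 at 37147091 to 37147516 (1.90e-07), both on the plus strand. None of these 4 peaks was overlapped by another library. In the class II and III part the best peak was at the second site in both EZH2 libraries, at the first site in SUZ12 replicate 2 and at the minus-strand site of 2 libraries in SUZ12 replicate 1. An FDR below 1e-10 was reached by 7 peaks of the class II and III part (3.91%), 0 of 108 in the class I part and 1.03% on the rest of the chromosome. All of the 7 but the SUZ12 replicate 2 peak at 34057303 lay in the 14.6 kb from the first to the second site. An FDR below 1e-05 was reached by 24 (13.4%) and 13 (12.0%) peaks of the parts, a like share, against 8.16% on the rest.

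Between clones of the same protein, sharing was higher in the region than on the rest of the chromosome in each library, by an amount and in a direction that depended on how it was counted. The other clone overlapped 6 of 61 region peaks of EZH2 replicate 1, 7 of 79 of EZH2 replicate 2, 11 of 65 of SUZ12 replicate 1 and 11 of 82 of SUZ12 replicate 2. These are 9.84%, 8.86%, 16.9% and 13.4%, against 9.38%, 7.54%, 10.1% and 9.48% on the rest of the chromosome. The mean difference was 3.13 ± 2.85 percentage points (SD over 4 libraries). The clones of a protein count the same overlaps from either side, so these values stand for 2 pairs of clones. Over 2 pairs a two-sided sign-flip test allows no p below 0.5. The difference was 0.891 points in the EZH2 libraries alone and 5.36 in the SUZ12 libraries alone, and it turned to -0.103 when a reciprocal overlap of 50% was asked for. With the best 50% of each list by FDR it was 9.66 ± 3.16 points. Counted against the other clone's peaks on the opposite strand, the difference was 1.38 ± 1.61 points, above the value of the EZH2 libraries alone.

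Counting a peak as shared when any of the other 3 libraries overlapped it gave a wider gap. The shares were 31.1%, 22.8%, 38.5% and 24.4% in the region for EZH2 replicates 1 and 2 and SUZ12 replicates 1 and 2, and 19.2%, 14.7%, 19.1% and 16.5% on the rest of the chromosome. An overlap counts in each library that takes part in it, so the libraries are not independent here and no p-value is given. The mean difference was 11.8 ± 5.39 points (SD over 4 libraries, higher in 4 of 4). With SUZ12 replicate 1 left out it was 4.48 points over the remaining libraries, and with a reciprocal overlap of 50% it was 4.75, so its size rested on that library and on the overlap asked for. The Wilson 95% intervals of the region's shares were wide, from 20.9 to 43.6% in EZH2 replicate 1, because each rests on 61 to 82 peaks.

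A larger share of peaks had an FDR below 0.001 in the region than on the rest of the chromosome. The single lowest FDR of each library nonetheless lay on the rest. It was 1.54e-31 and 1.85e-18 in EZH2 replicates 1 and 2 and 5.08e-19 and 5.13e-17 in SUZ12 replicates 1 and 2. In EZH2 replicates 1 and 2, 50.8% and 50.6% of the region's peaks had an FDR below 0.001, and in SUZ12 replicates 1 and 2, 61.5% and 51.2%. On the rest of the chromosome the shares were 34.6%, 43.6%, 41.2% and 44.6%. The mean difference was 12.6 ± 6.85 points (SD, n = 4; exact sign-flip permutation test, two-sided p = 0.125, higher in 4 of 4). FDR and sharing moved together, and their part in each other was not tested. The class I part, with no peak below an FDR of 1e-10, had as many peaks below 0.001 as the class II and III part for its number, 55.6% against 52.0%.

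More of the region's peaks lay on the plus strand. The plus strand held 60.7% and 63.3% of the peaks in EZH2 replicates 1 and 2 and 60.0% and 65.9% in SUZ12 replicates 1 and 2. On the rest of the chromosome the share was 51.7 to 51.9% in all 4 libraries. The mean difference was 10.7 ± 2.77 points (SD, n = 4; exact sign-flip permutation test, two-sided p = 0.125, higher in 4 of 4). The class I part had 65.0%, 74.2%, 61.5% and 64.5% of its peaks on the plus strand, and the class II and III part 58.5%, 56.3%, 59.0% and 66.7%. On which strand the genes of the region lie was not compared with these shares.

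Peaks on both strands at the same place within a library were rare. Only in SUZ12 replicate 1 did peaks overlap across strands, 2 of its 65, while the other libraries had 0 of 61, 79 and 82. Those 2 were the peaks at the second named site.

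**Figure D5:**
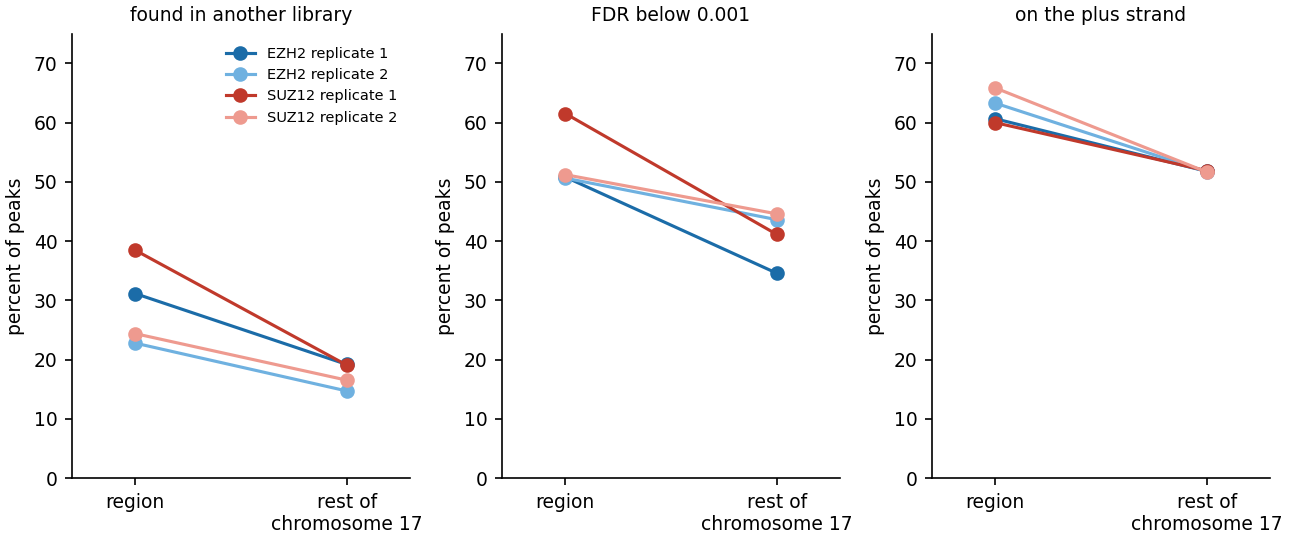
Percent of peaks (vertical axes) in the region and on the rest of chromosome 17 that were found in another library (left), had an FDR below 0.001 (middle) or lay on the plus strand (right), with 1 line per library. All 12 lines fall from the region to the rest, and the plus-strand share of the rest is near 51.7% in every library.

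No difference in peak width was detected. The region's median width was 171 and 181 bp in EZH2 replicates 1 and 2 and 141 and 139 bp in SUZ12, and 176, 183, 148 and 136 bp on the rest of the chromosome. The difference was -2.75 ± 4.35 bp (SD, n = 4; exact sign-flip permutation test, two-sided p = 0.375, higher in 1 of 4). EZH2 peaks had the larger medians in the region and on the rest of the chromosome alike. The region's peaks were 9 to 714 bp wide, and their highest FDR was 0.0091.

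No difference between EZH2 and SUZ12 in the weight of the region was detected. Its share of all peaks was 0.583% in EZH2 replicate 1 (95% Wilson interval 0.454 to 0.748%) and 0.595% in replicate 2 (0.478 to 0.741%). In SUZ12 it was 0.561% in replicate 1 (0.441 to 0.715%) and 0.588% in replicate 2 (0.474 to 0.729%). The difference, EZH2 minus SUZ12, was 0.0146 percentage points, which is below the SD of 0.0187 between the SUZ12 clones and above that of 0.0090 between the EZH2 clones (exact permutation test, two-sided p = 0.667, where 2 clones against 2 allow no p below 0.333). It turned to -0.0518 when each list was cut to its best 50% by FDR.

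Windows of 1 Mb were compared between the proteins in limma over 846 windows of all autosomes and X with a mean of at least 5 peaks per library, counted by strand. Of the region's 5 tested windows, 0 had a limma adjusted p below 0.05, and the share over all windows was 0%. At an unadjusted p below 0.05 in limma, 1 of the 5 passed, where 4.49% of all windows did. That was the minus-strand window from 34000001 to 35000000, with 9 and 14 peaks in EZH2 replicates 1 and 2 and 4 and 7 in SUZ12 replicates 1 and 2. SUZ12 minus EZH2 was -1.12 ± 0.44 there (log2, SE; limma adjusted p = 0.930), with a 95% interval of -1.98 to -0.27. This window was singled out by its unadjusted p. For their totals, both EZH2 libraries stood above both SUZ12 libraries, so leaving a library out could not turn the direction. The difference was -0.99 without EZH2 replicate 2 and -0.89 without SUZ12 replicate 1. It was -1.26 without EZH2 replicate 1 and -1.36 without SUZ12 replicate 2. In these fits 1 library stands alone and is assumed to vary like the pair of the other protein.

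On the plus strand of the same 1 Mb the libraries held 11, 11, 10 and 15 peaks, a difference of 0.04 ± 0.43 (log2, SE; limma adjusted p = 0.986). The window from 35000001 to 36000000 had 19, 21, 17 and 26 peaks on the plus strand, a difference of -0.04 with an interval of -0.65 to 0.58. It had 9, 9, 13 and 12 on the minus strand, a difference of 0.34 with an interval of -0.51 to 1.20. The minus-strand window from 33000001 held 5, 6, 4 and 6 peaks. SUZ12 was thus the higher in 2 of the 5 windows and the lower in 3. Over all 846 windows the 95% interval reached a median of 0.87 (log2) to each side, unadjusted for the number of windows. Differences smaller than that were mostly beyond what these peak numbers can show. Larger ones could also go uncalled, as did the -1.12 of the minus-strand window from 34000001.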

How the data were processed

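Libraries of UV-crosslinked RNA from streptavidin beads were made with a small-RNA kit and read as paired ends, per the labels' protocols. Per the submitters' processing notes, the tools were bedtools 2.17.0, SAMtools 0.1.18, TopHat2 2.0.8 and Trim Galore 0.3.3 and the build was mm9. Peak names carry the prefix of PeakRanger; its version, settings and control, and the treatment of reads that map to several places, are not given in the sources used here. Per library and strand, the authors deposited 1 peak list, so libraries had not been pooled. Each list gives start, end, summit and the FDR (a q-value) assigned by the authors' caller, which serves here to describe and rank peaks within a list. It does not hold read numbers, so depth is unknown; libraries held 10468 to 13951 peaks. No peak ended beyond an mm9 chromosome. Starts are printed 1 above the deposited number and summits as deposited.

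Peaks were placed by summit. Peaks per Mb were compared within libraries by exact sign-flip tests. Windows were compared with limma-trend on log2((peaks + 0.5) / (peaks in the library + 1) x 10000), with Benjamini-Hochberg adjustment at 0.05. The fit was also run on simulated counts. Those varied by counting error only and not between clones, so they do not show its error rate on these libraries. With 1 clone per library, clone and library preparation cannot be told apart. Where all libraries share a direction, a sign-flip p is the smallest possible, whatever the spread. The limma p-values rest on the spread between libraries of a protein, estimated jointly over all windows. Named by rule were the sites of all 4 libraries, the 5 leading stranded 50-kb windows and the best peak of each library in each part; the sites of 3 and 2 libraries, the single peak of SUZ12 replicate 2 and the stretches were named after their values were seen. Members and lists were chosen with earlier results of these data known. The tests of strand, FDR and width and the comparison of sharing with any library were added after the data were seen. The gene lists were used for names only, as the annotation at hand was of GRCm38; 62 of their 62 genes were found on its chromosome 17. Wilson intervals cover counting error only, while limma intervals rest on the spread between libraries. Versions were Python 3.11.15, NumPy 2.4.6, pandas 2.3.3, SciPy 1.17.1, Matplotlib 3.10.9, R 4.3.3, limma 3.58.1 and GenomeInfoDb 1.38.1, which gave the chromosome lengths.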

Additional observations from a re-analysis of the deposited data

How the results depend on the processing

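The class II and III part was denser than the class I part in all 14 alternatives (log2 0.49 to 1.07; 0.72 to 0.87 with a library left out), and both parts were denser than the rest of the chromosome on average in all 14 (log2 0.59 to 2.42 and 0.10 to 1.62; 2.11 to 2.21 and 1.28 to 1.40 with a library left out). Not all of the 14 could differ. Placing peaks by midpoint, or leaving out peaks wider than 3 kb or with a failed FDR, gave the same density ratios as the main setting. Leaving a library out could not turn a direction that every library had. The lowest of each came from counting only stranded windows with a peak, which leaves out the empty ones and was chosen after the data were seen. There the class I part was above the rest in 3 of 4 libraries. The difference in the region's share between the proteins turned to -0.0518 percentage points when each list was cut to its best 50% by FDR, was 0 with lists of equal length and was 0.00132 to 0.0278 with a library left out. Sharing between clones against the rest turned to -0.103 points with a reciprocal overlap of 50%, was 9.66 in the best 50% of each list by FDR and 4.28 with lists of equal length, and was 0.891 to 5.36 with a protein's libraries left out, since leaving out a clone removes its partner's comparison; the cause of these changes was not tested. Counted on the opposite strand, the sharing between clones was 1.38 points above the rest. No window of the region was called in any of 9 alternatives in limma. With the replicate number as a block, 0 of 5 were called and 1 had an unadjusted p below 0.05; deviations of same-numbered libraries correlated at 0.117 over 846 windows, and the numbers are not said to pair clones. The alternatives chosen after the data were seen kept the direction of the strand, FDR and any-library differences (7.91 to 11.5, 9.95 to 14.5 and 4.48 to 13.1 points). Those of the FDR difference only left out a library, which could not turn it, since every library had that direction. Single windows rest on few peaks per library, and read depth is unknown, which limits how small a difference could be seen.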
